A study of Mus musculus with 6 samples.

Results

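The genes described here encode the machinery of sterol and fatty acid synthesis that the SREBP transcription factors control. They are 34 listed symbols, 21 of a sterol branch and 13 of a fatty acid branch, grouped by their place in the pathway. The list was chosen with earlier results of these data known. For each symbol the brightest probe set that carries a single gene symbol on the array stood for the gene. Such a probe set was found for 32 of the 34 genes, among 19938 genes in all, leaving 20 of the sterol branch and 12 of the fatty acid branch. Acat2 was not analysed here, and Acsl3 shares its probe set with another gene and was left out. None of the 32 fell below the limit for dim genes, a mean log2 signal of 6.58 that 13956 genes passed.

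The study compared dendritic cells grown from the marrow of mice that had received marrow of UV-exposed or unexposed donors. In the UV-donor group, female C57BL/6J recipients had been given 2000000 bone marrow cells of a B6.SJL-Ptprca donor, a congenic strain that carries the CD45.1 form of CD45, whose shaved back skin had been irradiated with broadband UV at up to 8 kJ/m2. In the naive-donor group the recipients were of the same strain and sex and received the same number of cells from an unexposed B6.SJL-Ptprca donor. In both groups, marrow was cultured for 5 days with GM-CSF and IL-4 at 10 ng/ml each, and cells carrying CD11c were enriched with magnetic beads to over 95%. Mice were 6 to 10 weeks old when irradiated, as the general design states. Each group had 3 preparations, 1 array each. The labels do not tie the preparations to separate mice, so p-values measure the spread between preparations, which may be technical. They also do not say what share of the cultured cells came from the donor. UV-donor replicate 1 stood apart on a principal component analysis of the tested genes (leading component), at -14.1, against -4.31 and -3.79 for the other UV-donor arrays. Naive-donor arrays 1 to 3 lay at 9.41, 2.01 and 10.8, so naive-donor replicate 2 also lay away from its group, toward the UV-donor arrays. Results are also given without UV-donor replicate 1.

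SREBP2, the product of Srebf2, and SREBP1, the product of Srebf1, are made as precursors in the membrane of the endoplasmic reticulum. When membrane sterol runs low, the escort protein Scap carries them to the Golgi, where proteases free the part that enters the nucleus and binds DNA. When sterol is plentiful, Insig1 and Insig2 hold Scap back. SREBP2 acts mainly on genes of cholesterol synthesis and uptake, and SREBP1 mainly on genes of fatty acid synthesis, elongation and desaturation. On promoters of these genes SREBPs bind short sterol regulatory elements together with partners such as NF-Y, which binds CCAAT boxes, and Sp1, which binds GC boxes. Myeloid cells use the pathway to build membrane during growth and activation.

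Promoter sequence from RefSeq on the mouse build GRCm38.p6 was held for 25 of the 32 measured genes, 16 of the sterol branch and 9 of the fatty acid branch. The 250 bases before the start of each gene were searched on both strands, over all windows of a gene where it had several. CCAAT, which reads ATTGG on the other strand, was found for 15 of 16 sterol genes, or 93.8%, and for 4 of 9 fatty acid genes, or 44.4%, against 37.5% of 27025 genes. Scap was the sterol gene without it, and Acly, Acaca, Elovl6, Fads2 and Acsl4 were the fatty acid genes without it. The GC box GGGCGG was found for 15 of 16 sterol genes and 5 of 9 fatty acid genes, against 35.4% of all genes. TCACNCCAC, a sterol regulatory element type, was found for Hmgcs1 alone among the 25, against 1.22% of all genes. The shorter CACNCCAC, which lies within it, was found for Hmgcs1, Insig1 and Acsl4, against 6.05%. The E-box CACGTG was found for Scap, Insig1, Hsd17b7, Dhcr7 and Elovl5, against 6.86%. A match describes these letters only, and binding was not measured. The 27025 genes are all those with a window, whether or not they had signal on the arrays. The shares are thus of an unlike set and were not tested.

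The 200 bases directly before the start of 6 genes are shown because these include, in each branch, the pair of genes with the largest differences among those with a single window, as well as Srebf2 and the gene with the sterol element. Capitals mark CCAAT on either strand and the TCACNCCAC match, and each line runs 5′ to 3′ on the strand of its gene. In Fasn a CCAAT and an ATTGG overlap in a single run of capitals.
Cyp51, chr5:4104698-4104897, minus strand: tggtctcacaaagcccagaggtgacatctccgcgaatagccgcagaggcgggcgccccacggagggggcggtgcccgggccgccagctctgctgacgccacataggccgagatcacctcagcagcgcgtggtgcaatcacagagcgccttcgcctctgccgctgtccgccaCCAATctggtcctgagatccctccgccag
Idi1, chr13:8885406-8885605, plus strand: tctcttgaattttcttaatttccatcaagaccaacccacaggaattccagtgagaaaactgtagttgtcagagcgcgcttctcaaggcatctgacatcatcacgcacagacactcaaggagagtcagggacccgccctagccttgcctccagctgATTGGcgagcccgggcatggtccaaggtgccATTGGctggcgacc
Hmgcs1, chr13:119690151-119690350, plus strand: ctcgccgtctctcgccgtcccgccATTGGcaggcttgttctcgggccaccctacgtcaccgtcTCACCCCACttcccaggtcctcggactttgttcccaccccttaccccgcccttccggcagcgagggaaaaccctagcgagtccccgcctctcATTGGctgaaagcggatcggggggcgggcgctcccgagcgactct
Srebf2, chr15:82147069-82147268, plus strand: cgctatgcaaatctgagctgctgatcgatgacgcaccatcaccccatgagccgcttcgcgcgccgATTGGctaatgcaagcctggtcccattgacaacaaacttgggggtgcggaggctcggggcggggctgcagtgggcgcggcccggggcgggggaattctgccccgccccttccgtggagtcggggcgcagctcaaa
Fads2, chr19:10101504-10101703, minus strand: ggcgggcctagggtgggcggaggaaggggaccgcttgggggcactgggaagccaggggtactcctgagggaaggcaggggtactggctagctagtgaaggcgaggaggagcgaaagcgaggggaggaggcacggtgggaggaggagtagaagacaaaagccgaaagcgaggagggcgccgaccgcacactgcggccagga
Fasn, chr11:120824548-120824747, minus strand: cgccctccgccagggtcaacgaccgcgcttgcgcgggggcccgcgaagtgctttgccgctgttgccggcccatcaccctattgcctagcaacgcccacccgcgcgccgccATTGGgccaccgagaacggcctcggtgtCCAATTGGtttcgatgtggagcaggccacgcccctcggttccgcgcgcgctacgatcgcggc

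The printed stretches of Idi1 and Hmgcs1 each hold CCAAT at 2 places and that of Fasn at 3. Those of Cyp51 and Srebf2 hold it at 1 place, and that of Fads2 at none.

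Sterol genes had higher mean signals in the UV-donor group almost throughout, and fatty acid genes were split. Of the 20 sterol genes 19 had higher means on UV-donor arrays, and the median log2 difference was 0.26 (1.20-fold). Of the 12 fatty acid genes 8 had higher and 4 lower values, with a median of 0.13 (1.09-fold), while all tested genes had a median of 0.0016 and 50.6% had higher values. The largest differences were in Fads2, the delta-6 desaturase that starts the making of long polyunsaturated fatty acids, at 2.19-fold, and in Cyp51, which removes a methyl group from lanosterol, at 1.75-fold. No gene of either branch passed the test. In bulk preparations, more cells of a kind and more RNA per cell cannot be told apart. Values are log2 signals as the authors deposited them, and every difference below is the UV-donor mean minus the naive-donor mean on that scale.

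The test was limma, fitted over all 13956 genes with Benjamini-Hochberg adjustment, two-sided, and an adjusted p under 0.05 counted as a call. It called 0 of the 32 genes, against 24 of all tested genes, or 0.172%, and the smallest adjusted p among the 32 was 0.117. At an unadjusted p under 0.05, 13 of 20 sterol genes and 4 of 12 fatty acid genes had higher values, against 9.60% of all tested genes. In the lower direction the count was 0 in both branches, against 5.49%. All 3 UV-donor arrays lay above all 3 naive-donor arrays for 12 sterol and 4 fatty acid genes, against 12.4% of all tested genes. The reverse was seen for Acsl4 alone, against 9.37%. The counts were read from a list chosen with earlier results of these data known, so they describe the list and test nothing about it. With 3 arrays a group, the smallest two-sided p of an exact permutation test is 0.1.

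**Figure D1:**
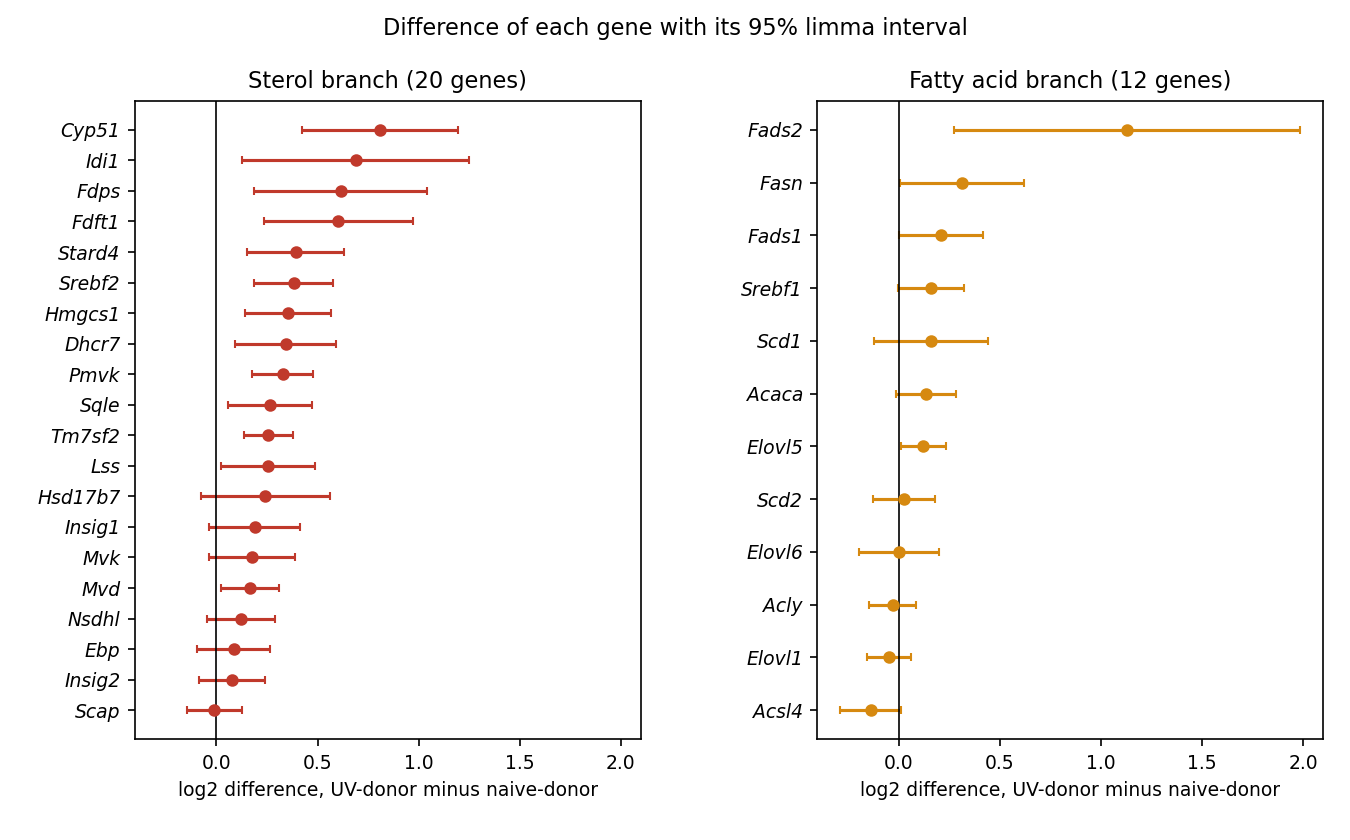
Log2 difference, UV-donor minus naive-donor, of each measured gene (points) with its 95% limma interval (bars), by branch and ordered by size. The sterol genes lie at or above 0 except Scap at -0.011, with Cyp51 at 0.81, and the fatty acid genes lie between -0.14 and 0.31 except Fads2 at 1.13.

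Among the regulators, Srebf2 had the clearest separation. Its log2 signals were 11.48, 11.24 and 11.13 on UV-donor arrays 1 to 3, against 10.88, 10.91 and 10.92 on naive-donor arrays 1 to 3. The naive-donor arrays lay close together and all UV-donor arrays were above them, replicate 1 the highest. The difference of means was 0.38 (SE 0.084, limma adjusted p = 0.135). Srebf1 had signals of 9.84, 9.63 and 9.64 on UV-donor arrays 1 to 3, against 9.46, 9.63 and 9.54 on naive-donor arrays 1 to 3. UV-donor replicate 2 exceeded naive-donor replicate 2 by less than the rounding of these values, and the difference was 0.16 (SE 0.071, limma adjusted p = 0.342).

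The differences of Scap, Insig1 and Insig2 were smaller than that of Srebf2. Scap had signals of 10.18, 9.99 and 10.15 on UV-donor arrays 1 to 3, against 10.14, 10.09 and 10.11 on naive-donor arrays 1 to 3, with overlapping groups and a difference of -0.011 (95% interval -0.15 to 0.13). Insig1, which SREBPs themselves induce, had signals of 11.08, 10.90 and 10.74 on UV-donor arrays 1 to 3, against 10.87, 10.69 and 10.59 on naive-donor arrays 1 to 3. The groups overlapped and the difference was 0.19 (95% interval -0.035 to 0.41). Insig2 had signals of 10.37, 10.42 and 10.23 on UV-donor arrays 1 to 3, against 10.29, 10.35 and 10.14 on naive-donor arrays 1 to 3, again overlapping, with a difference of 0.078 (95% interval -0.087 to 0.24). For these 3 genes the intervals include 0, as does that of Srebf1 (95% interval -0.0044 to 0.32).

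In the mevalonate steps, which turn acetyl units into the isoprenoid precursors of cholesterol, all 6 measured genes had higher UV-donor means (median difference 0.34). Hmgcs1, the synthase that makes HMG-CoA, had signals of 10.52, 10.30 and 10.12 on UV-donor arrays 1 to 3, against 9.92, 9.97 and 9.98 on naive-donor arrays 1 to 3. All UV-donor arrays were above the naive-donor arrays, and the difference was 0.35 (SE 0.092, limma adjusted p = 0.163). Pmvk, the kinase that adds the later phosphate to mevalonate, had signals of 8.29, 8.26 and 8.14 on UV-donor arrays 1 to 3, against 8.01, 7.87 and 7.83 on naive-donor arrays 1 to 3. The UV-donor arrays lay close together and above the naive-donor arrays, with a difference of 0.33 (SE 0.066, limma adjusted p = 0.117), the smallest p of all 32 genes.

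Idi1, the isomerase of isopentenyl diphosphate, was among the most variable genes of the steps, with signals of 10.27, 9.57 and 9.26 on UV-donor arrays 1 to 3, against 8.70, 9.29 and 9.04 on naive-donor arrays 1 to 3. UV-donor replicate 1 stood far above the rest, while naive-donor replicate 2 exceeded UV-donor replicate 3, so the groups overlapped. The difference was 0.69 (SE 0.24, limma adjusted p = 0.254), and another probe set of Idi1 gave 0.73. Fdps, which makes farnesyl diphosphate, had signals of 10.84, 10.24 and 10.14 on UV-donor arrays 1 to 3, against 9.64, 10.07 and 9.66 on naive-donor arrays 1 to 3. The groups were separate but by little, since naive-donor replicate 2 came near UV-donor replicate 3, and the difference was 0.61 (SE 0.19, limma adjusted p = 0.197). Mevalonate kinase, Mvk, differed by 0.18 (95% interval -0.036 to 0.39) with overlapping groups, and the decarboxylase Mvd by 0.16 (95% interval 0.021 to 0.31) with groups that did not overlap.

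All 9 genes from squalene to the final sterols had higher mean values in the UV-donor group as well (median 0.26). Fdft1, squalene synthase, which commits farnesyl units to sterols, had signals of 11.40, 10.88 and 10.69 on UV-donor arrays 1 to 3, against 10.28, 10.48 and 10.40 on naive-donor arrays 1 to 3. The groups did not overlap, the difference was 0.60 (SE 0.16, limma adjusted p = 0.164), and another probe set of Fdft1 gave 0.68. Sqle, squalene epoxidase, a rate-limiting enzyme of the pathway, had signals of 10.87, 10.70 and 10.49 on UV-donor arrays 1 to 3, against 10.41, 10.49 and 10.38 on naive-donor arrays 1 to 3. UV-donor replicate 3 exceeded naive-donor replicate 2 by less than the rounding of these values, and the difference was 0.26 (SE 0.091, limma adjusted p = 0.241).

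Cyp51 had signals of 9.57, 9.04 and 8.86 on UV-donor arrays 1 to 3, against 8.28, 8.53 and 8.23 on naive-donor arrays 1 to 3. The groups did not overlap, and UV-donor replicate 1 stood apart from the other UV-donor arrays. The means were 9.16 ± 0.37 for UV-donor and 8.35 ± 0.16 for naive-donor arrays (SD, n = 3 each). The difference was 0.81 (SE 0.17, limma adjusted p = 0.123) with a 95% interval of 0.43 to 1.20. Tm7sf2, a sterol C14 reductase that acts after Cyp51, had signals of 8.91, 8.86 and 8.82 on UV-donor arrays 1 to 3, against 8.67, 8.61 and 8.54 on naive-donor arrays 1 to 3. Here the 3 UV-donor arrays were nearly level, all above the naive-donor arrays, and the difference was small but steady at 0.26 (SE 0.053, limma adjusted p = 0.122).

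Dhcr7, which makes cholesterol from 7-dehydrocholesterol, had signals of 9.99, 9.60 and 9.64 on UV-donor arrays 1 to 3, against 9.31, 9.54 and 9.35 on naive-donor arrays 1 to 3. UV-donor replicate 2 exceeded naive-donor replicate 2 by a narrow margin, and the difference was 0.34 (SE 0.11, limma adjusted p = 0.212). Lss, which closes the sterol rings, differed by 0.25 (95% interval 0.021 to 0.49). The remaining enzymes had overlapping groups and intervals that include 0, with Hsd17b7, a ketoreductase, at 0.24 (95% interval -0.075 to 0.56), Nsdhl, which acts with it on the C4 methyl groups, at 0.12 (95% interval -0.047 to 0.29), and the isomerase Ebp at 0.084 (95% interval -0.098 to 0.27). Stard4, a carrier of cholesterol between membranes, had signals of 9.81, 9.76 and 9.44 on UV-donor arrays 1 to 3, against 9.32, 9.38 and 9.13 on naive-donor arrays 1 to 3. Its groups did not overlap and the difference was 0.39 (SE 0.10, limma adjusted p = 0.165).

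The fatty acid branch was uneven. Fads2 had signals of 10.45, 9.16 and 8.98 on UV-donor arrays 1 to 3, against 8.11, 8.92 and 8.18 on naive-donor arrays 1 to 3. UV-donor replicate 1 stood more than a log2 unit above every other array, and naive-donor replicate 2 lay only just under UV-donor replicate 3. The means were 9.53 ± 0.80 for UV-donor and 8.40 ± 0.45 for naive-donor arrays (SD, n = 3 each), and the difference of 1.13 (SE 0.37, limma adjusted p = 0.223) had a 95% interval of 0.27 to 1.98, the widest of the 32 genes. Fads1, the delta-5 desaturase that acts after Fads2, differed by 0.21 (95% interval 0.0017 to 0.42). Its groups overlapped.

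The stearoyl desaturases make oleate from stearate. Scd1 differed by 0.16 (95% interval -0.12 to 0.44) and Scd2 by 0.026 (95% interval -0.13 to 0.18), both with overlapping groups. In chain synthesis, Fasn, the synthase that builds palmitate, had signals of 11.03, 10.48 and 10.54 on UV-donor arrays 1 to 3, against 10.34, 10.47 and 10.30 on naive-donor arrays 1 to 3. UV-donor replicate 1 stood apart, while UV-donor replicate 2 was only just above naive-donor replicate 2, so the groups barely failed to overlap. The difference was 0.31 (SE 0.13, limma adjusted p = 0.324). Acaca, acetyl-CoA carboxylase, differed by 0.14 (95% interval -0.014 to 0.28) and Acly, which makes cytosolic acetyl-CoA from citrate, by -0.030 (95% interval -0.15 to 0.086).

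The elongases and the acyl-CoA synthetase had no common direction. Elovl5, which lengthens polyunsaturated chains, differed by 0.12 (95% interval 0.0082 to 0.23) with groups that did not overlap. Elovl1, which acts on very long chains, differed by -0.048 (95% interval -0.16 to 0.061) and Elovl6, which lengthens palmitate, by -0.00093 (95% interval -0.20 to 0.20). Acsl4, which activates arachidonate and related acids, had signals of 11.68, 11.80 and 11.79 on UV-donor arrays 1 to 3, against 12.01, 11.86 and 11.82 on naive-donor arrays 1 to 3. It had the most negative difference of the 32 genes, with all UV-donor arrays below the naive-donor arrays, at -0.14 (SE 0.065, limma adjusted p = 0.356).

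**Figure D2:**
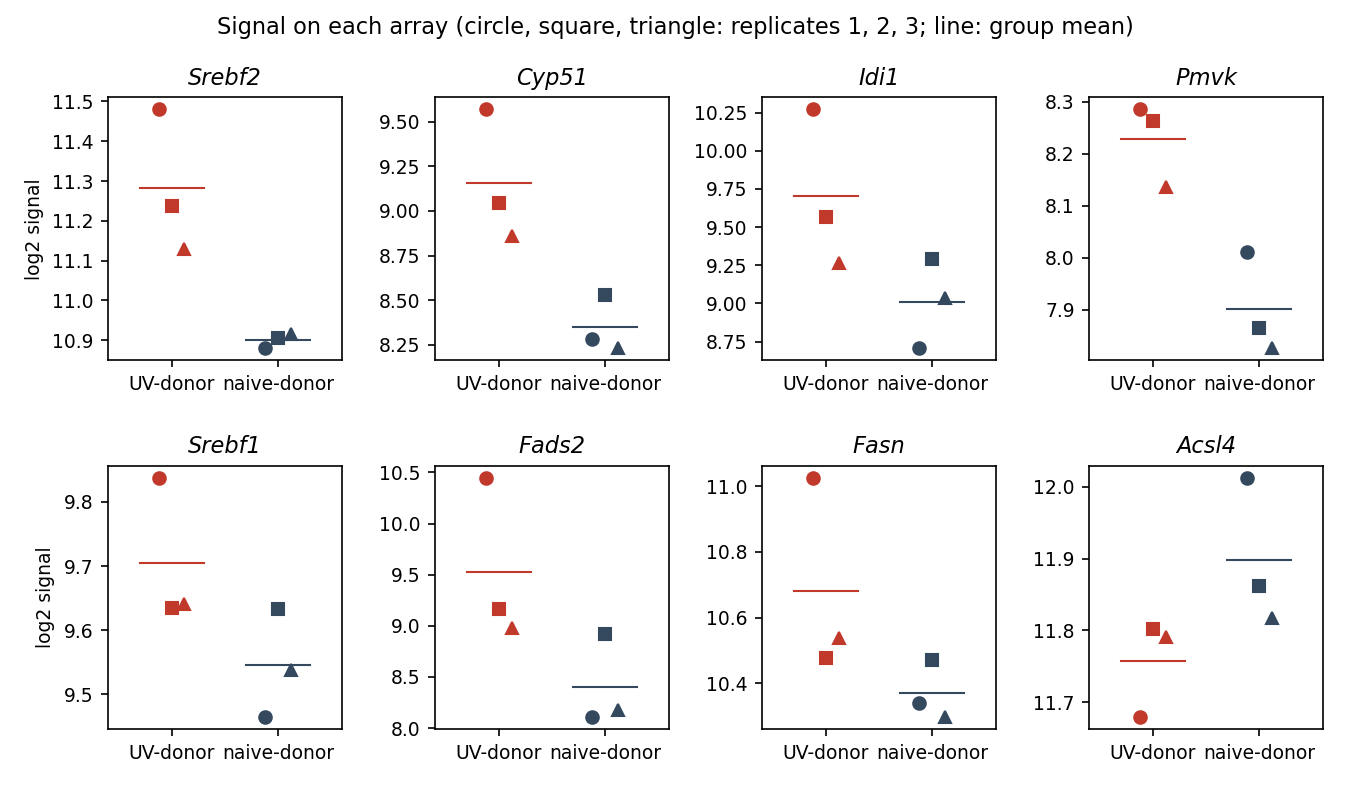
Log2 signal of 4 sterol branch genes (upper row) and 4 fatty acid branch genes (lower row) on each array, UV-donor left and naive-donor right, with group means as lines and a scale of its own in each panel. UV-donor replicate 1 is the highest array in all panels except Acsl4, where it is the lowest at 11.68.

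Set side by side, the branch medians differed by 0.13 (0.26 for sterol genes and 0.13 for fatty acid genes). No test was made of this difference, because the branches were listed with earlier results known. Within each group both branches ordered the arrays alike. Medians of the sterol genes, each relative to the naive-donor mean of the gene, were 0.48, 0.23 and 0.13 on UV-donor arrays 1 to 3, against -0.011, 0.050 and -0.047 on naive-donor arrays 1 to 3. The same medians of the fatty acid genes were 0.19, 0.075 and 0.012 on UV-donor arrays, against -0.027, 0.059 and -0.052 on naive-donor arrays. The sterol medians of the groups do not overlap, and the fatty acid medians do.

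UV-donor replicate 1 was the highest of the 6 arrays for 19 of 20 sterol genes and 7 of 12 fatty acid genes, against 21.9% of all tested genes. Among the naive-donor arrays, replicate 2 was the highest for 12 sterol and 8 fatty acid genes, against 33.2% of all tested genes. Without UV-donor replicate 1, 19 of 20 sterol genes still had higher values, with a median of 0.20. At an unadjusted p under 0.05, 10 sterol genes and 1 fatty acid gene were then higher, against 7.93% of all tested genes. The fatty acid median without that array was 0.045. The difference of Fads2 became 0.67, that of Cyp51 0.60, that of Idi1 0.40 and that of Pmvk 0.30, and limma called 0 of the 32 genes, with a smallest limma adjusted p of 0.0934 (0.0809 to 0.274 over all alternatives tried).

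**Figure D3:**
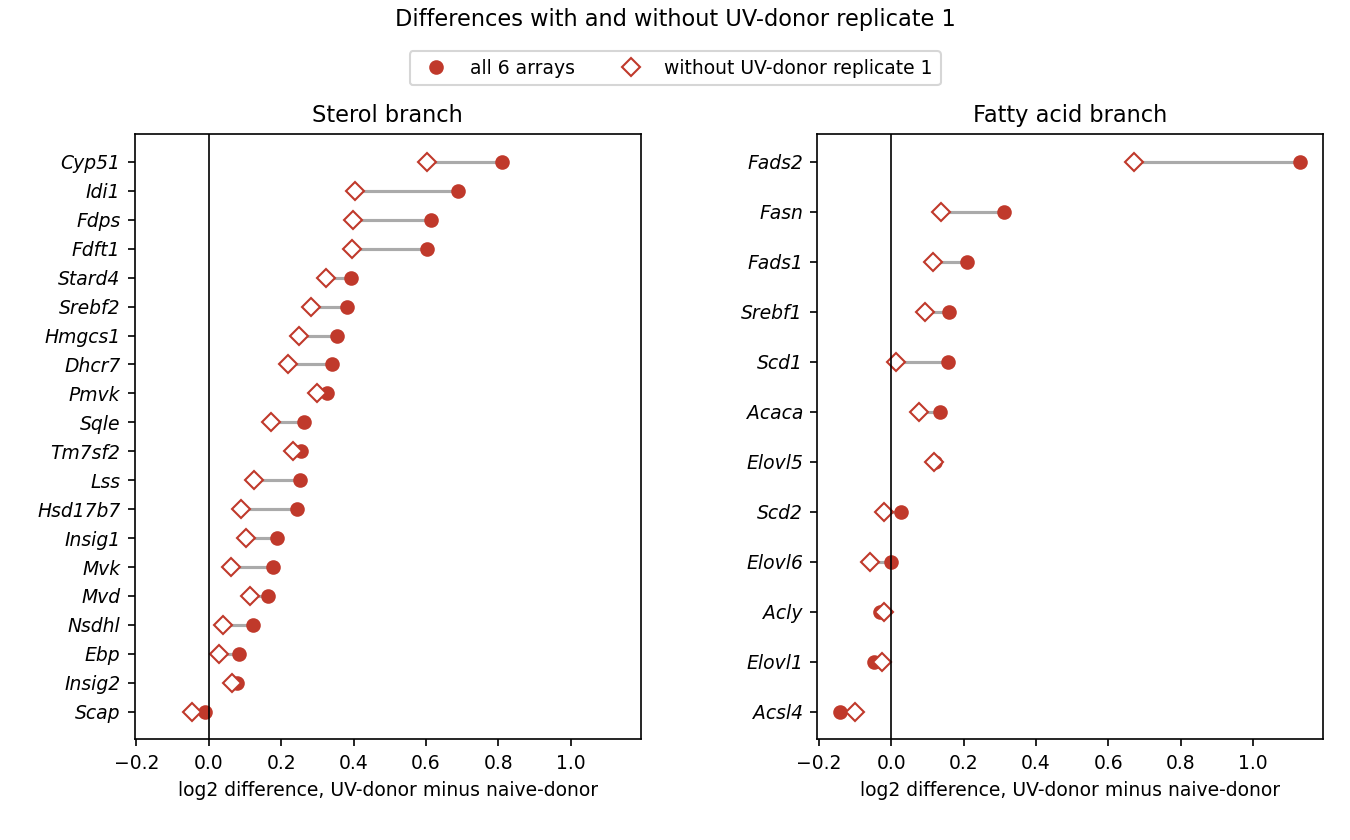
Log2 difference, UV-donor minus naive-donor, of each gene with all 6 arrays (filled circles) and without UV-donor replicate 1 (open diamonds). All 20 sterol genes move to the left and 19 stay above 0, while Fads2 moves to 0.67 from the 1.13 of all arrays.

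Genes of dividing cells were likewise highest on UV-donor replicate 1 and, among naive-donor arrays, on replicate 2. All 23 tested genes of a proliferation list (among them the replication and mitosis genes Mki67, Top2a and Aurka) had higher means in UV-donor arrays, with a median difference of 0.52 and 0 called. An unadjusted p under 0.05 was reached by 21 of the 23, against 9.60% of all tested genes, and for 21 all UV-donor arrays lay above all naive-donor arrays, against 12.4%. Their mean relative to the naive-donor mean ran from 0.35 to 0.78 on UV-donor arrays and from -0.13 to 0.22 on naive-donor arrays. UV-donor replicate 1 was the highest array for all 23, and naive-donor replicate 2 the highest naive-donor array for 22. None of the 23 was below the dim limit. The part of dividing cells in the differences of sterol and fatty acid genes was not tested.

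**Figure D4:**
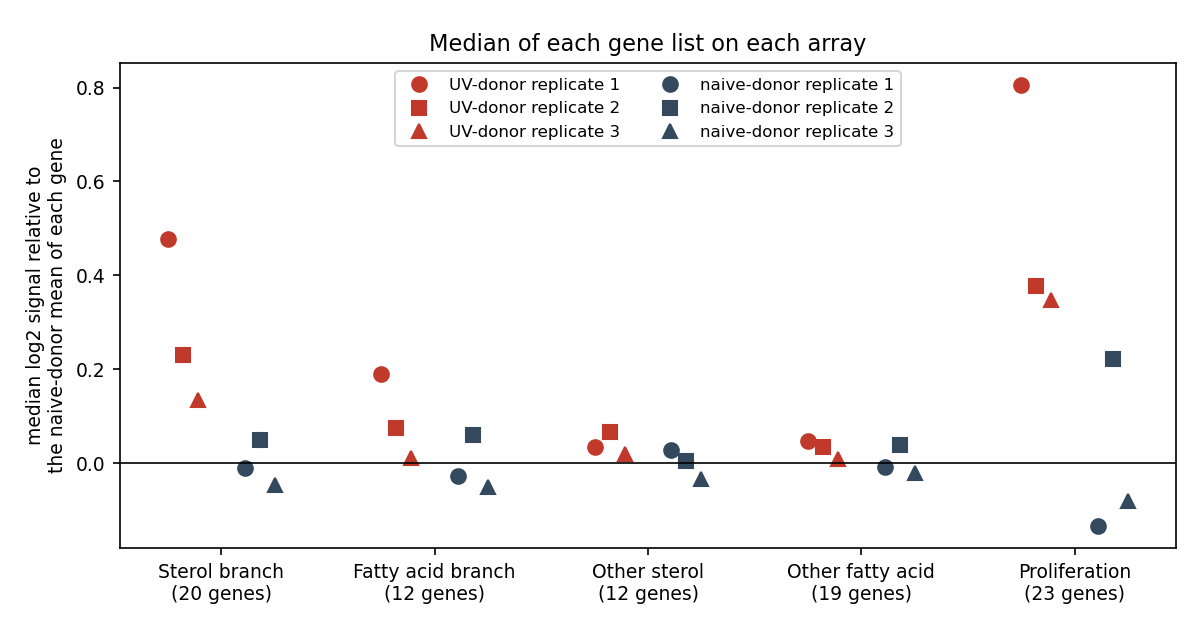
Median over each gene list of the log2 signal relative to the naive-donor mean of each gene, by array, with UV-donor arrays to the left of naive-donor arrays. The sterol branch runs from 0.13 to 0.48 on UV-donor arrays. UV-donor replicate 1 is highest in every list except the other sterol genes, at 0.81 in the proliferation list and only 0.048 in the other fatty acid list.

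Other genes of the pathway, listed with earlier results of these data known, had smaller median differences. Of 12 tested genes of the sterol pathway outside the list above, 8 had higher values, with a median of 0.039, 0 called and 3 higher at an unadjusted p under 0.05, against 9.60% of all tested genes. These 3 were Msmo1, the C4 methyl oxidase that follows Cyp51 and Tm7sf2, at 0.46 (SE 0.12, limma adjusted p = 0.160), Acat1, a thiolase of mitochondria, at 0.15 (SE 0.051, limma adjusted p = 0.226), and Sc5d, the lathosterol desaturase, at 0.18 (SE 0.073, limma adjusted p = 0.300). Msmo1 had signals of 11.06, 10.89 and 10.54 on UV-donor arrays 1 to 3, against 10.38, 10.42 and 10.32 on naive-donor arrays 1 to 3, with all UV-donor arrays above the naive-donor arrays.

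Of 19 tested further genes of fatty acid and lipid synthesis, 11 had higher values, with a median of 0.026 and 0 called, and an unadjusted p under 0.05 was reached by 1 higher and 1 lower gene, against 9.60% and 5.49% of all tested genes. The gene with the smallest p was the phosphatidate phosphatase Lpin1, at 0.16 (SE 0.059, limma adjusted p = 0.271). Malic enzyme Me1, which supplies NADPH, was at -0.18 (SE 0.072, limma adjusted p = 0.305), and Dgat1, which makes triglycerides, at -0.12 (SE 0.074, limma adjusted p = 0.475).

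The arrays carried the markers of the labelled cells. Itgax, which encodes CD11c, had signals of 13.71, 13.75 and 13.73 on UV-donor arrays 1 to 3, against 13.78, 13.75 and 13.79 on naive-donor arrays 1 to 3, and the class II genes H2-Ab1 and H2-Aa were well above the dim limit, while the dendritic cell marker Flt3 was below it. Array medians ran from 7.16 to 7.23, and correlations over all 35556 probe sets from 0.995 to 0.997. The marker counts that follow stand beside 50.6% of all tested genes with higher values and 0.172% called. Of 10 neutrophil markers 7 were higher in mean on UV-donor arrays, with S100a8 and Ltf called. Camp at -0.019, Elane at -0.035 and Prtn3 at -0.12 were lower. The mean of the 10 neutrophil markers relative to the naive-donor mean ran from 0.27 to 0.39 on UV-donor arrays, lowest on replicate 1. On naive-donor arrays it ran from -0.061 to 0.078. All 6 progenitor markers had higher values, with Ms4a3 called, and their mean ran from 0.35 to 0.42 on UV-donor arrays and from -0.091 to 0.073 on naive-donor arrays. Ms4a3 at 1.09 and Cd34 at 0.76 had the largest of these differences, and the others ran from 0.042 to 0.19. The median of the 6 ran from 0.15 to 0.17 on UV-donor arrays and from -0.038 to 0.091 on naive-donor arrays. Of 8 macrophage markers 4 had higher values, with C1qb called, and of 8 tested dendritic cell markers 7, with Cd209a called. The means ran from 0.13 to 0.18 on UV-donor arrays and from -0.032 to 0.029 on naive-donor arrays for macrophage markers, and from 0.11 to 0.14 and from -0.038 to 0.031 for dendritic cell markers. Of 6 stromal and fat cell markers, 3, Adipoq, Lep and Cdh5, were below the dim limit. The 3 others had lower means on UV-donor arrays, Plin1 at -0.061 and Col1a1 at -0.10 with overlapping groups and the collagen gene Col3a1 at -0.19 (SE 0.045, limma adjusted p = 0.149) with all UV-donor arrays below the naive-donor arrays. The part of these cells in the results was not tested.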

How the data were processed

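Total RNA of 6 preparations was measured on 6 single-channel arrays. The authors deposited 1 log2 value per probe set and array, made with RMA, per the submitters' processing notes, which name oligo and limma without versions. The log2 scale was read from the deposited values, which run from 2.52 to 14.6. The summary level and scan batches are not given in the sources used here.

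Arrays were assigned through their labels. Of 35556 probe sets, 21789 had 1 gene symbol in the platform annotation, 1621 several, and 12146 were unlisted, and 21698 matched RefSeq (GRCm38.p6) by identifier, with 0 symbols changed. The brightest probe set stood for a gene, and genes below the 30th percentile of mean signal were left out. Values were used as deposited. Groups were compared across all 13956 remaining genes with limma 3.58.1 in R 4.3.3 (lmFit, eBayes), with Benjamini-Hochberg adjustment, and the fit was tested on simulated data. The number of arrays limits the precision. Members, gene lists, tests and motifs were chosen with earlier results of these data known. All listed genes could be named, with every array's value for the 12 of smallest p and the regulators, and the 3 of smallest p in each list of other pathway genes. Array values of Fasn and Acsl4, the stromal markers with values and the genes named in the closing observations were added after their values were seen. Alternatives were a replicate block, other dim filters, other normalizations, variance settings, averaged probe sets, another threshold and leaving out each array. Figures were drawn with matplotlib 3.10.9.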

Additional observations from a re-analysis of the deposited data

How the results depend on the processing

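Same-numbered arrays of the groups were not treated as pairs, since the labels do not pair them. Their deviations from the group means had correlations of -0.13, -0.22 and 0.15, which with 3 arrays a group cannot settle whether they were paired. A fit with the replicate block gave 0 calls by limma over all tested genes (at an unadjusted p under 0.05, 1286 were higher and 666 lower), and 15 sterol and 2 fatty acid genes with higher values reached an unadjusted p under 0.05. The 24 genes called in all became 43 with centred array medians, 43 with array weights, 45 with an intensity trend and robust prior, 70 at an adjusted p under 0.10 and 1 to 32 with single arrays left out. Limma called 0 of the 32 genes under all of these, with 17 at an unadjusted p under 0.05 in the fit as reported, all higher, and at an adjusted p under 0.10 the count was 0 in that same fit, 4 with centred array medians (Pmvk, Tm7sf2, Cyp51 and Srebf2) and 1 (Cyp51) without UV-donor replicate 1. The count of 4 fatty acid genes with higher values at that unadjusted threshold became 6 with centred array medians, 3 with the intensity trend and robust prior, 2 with the 50th percentile filter, 2 with quantile normalization, 1 with array weights and 0 to 5 with single arrays left out (0 without naive-donor replicate 1 or 3). The sterol count ran from 10 to 15, its median difference from 0.20 to 0.37 and the fatty acid median from 0.045 to 0.17. The branch medians differed by 0.12 to 0.20. Centring, which moved the median of all tested genes to 0.036, turned Scap to 0.024, Acly to 0.0050 and Elovl6 to 0.034, and array weights turned Scap to 0.0047 and Scd2 to -0.024. With single arrays left out, Scap ran from -0.047 to 0.047, Elovl6 ran from -0.080 to 0.075, Acly ran from -0.049 to 0.0060 and Scd2 ran from -0.028 to 0.064. Of 448 combinations of gene and alternative, 434 kept the direction. The causes of these shifts were not tested.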

Other observations

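Differences within gene families were uneven in size. Fads1, Fads2 and Fads3 are related desaturase genes, and their differences were 0.21 (95% interval 0.0017 to 0.42), 1.13 (95% interval 0.27 to 1.98) and 0.0060 (95% interval -0.18 to 0.19), UV-donor minus naive-donor. Fads3 had signals of 8.65, 8.33 and 8.45 on UV-donor arrays 1 to 3, against 8.54, 8.42 and 8.45 on naive-donor arrays 1 to 3, with overlapping groups. Of the stearoyl desaturase family, Scd1 and Scd2 are given above, Scd3 differed by -0.057 (95% interval -0.26 to 0.15), and Scd4 was below the dim limit and not tested. The acyl-CoA synthetases Acsl4 and Acsl5 differed by -0.14 (95% interval -0.29 to 0.0091) and 0.061 (95% interval -0.10 to 0.22). Acsl6 of the same family was below the dim limit and not tested, with all UV-donor arrays below the naive-donor arrays. The probe sets of these related genes were not checked for shared sequence, and no difference between family members was tested.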
